A study of Mus musculus with 2 samples.

Results

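The cells described here were Gfap and Vim high astrocytes of the mouse brain. They numbered 211 of the 5983 barcodes that passed an astrocyte gate, out of 25287 barcodes in the whole dataset. The members were chosen by their measured molecule counts in these same libraries. A barcode entered the gate with 1500 to 50000 unique molecular identifiers (UMIs, one per captured transcript), at most 30% of them from mitochondrial genes, and a summed count of Aldoc, Aqp4 and Gja1 of at least 10. It left the gate with 5 or more UMIs of the microglial C1qa, C1qb and C1qc genes. It also left with 3 or more of the ependymal genes Ccdc153 and Tmem212, of the endothelial gene Cldn5, of the oligodendrocyte genes Mog and Mag, or of the fibroblast genes Dcn and Col1a1. A gated barcode with 5 or more UMIs of Gfap and Vim together was a member. The 5772 gated barcodes below that limit are called low astrocytes.

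Gfap encodes glial fibrillary acidic protein and Vim encodes vimentin, intermediate filament proteins that polymerise together in the astrocyte cytoskeleton. Most gray matter astrocytes of the healthy adult brain hold little of either. Astrocytes below the pial surface, in white matter and along the ventricles carry more, and both genes are induced when astrocytes react to injury or disease. Thbs4 encodes thrombospondin 4, a secreted matrix protein known from astrocytes of the subventricular zone. C4b encodes a complement component that reactive and aged astrocytes transcribe.

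The libraries came from a study of how the human APOE4 allele affects glucose use in the brain. Each was made from the pooled right hemispheres of 3 female mice of 11 to 12 months, without brainstem and cerebellum, after transcardial perfusion, enzymatic dissociation and capture on a 10x Genomics Chromium instrument. The E3 library came from homozygous E3/E3 mice and the E4 library from homozygous E4/E4 mice, which express human APOE3 or human APOE4 in place of the mouse gene. Both groups thus carried a human allele, and no mouse with its own Apoe was part of the data. With 1 pool of mice per genotype, genotype and library cannot be told apart, no test between groups was possible, and E4 beside E3 is given as values. Intervals are exact 95% intervals that cover counting error only, not the spread between mice.

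The E3 library held 11485 barcodes with a median of 3784 UMIs, and the E4 library 13802 barcodes with a median of 4085. In all, 46 barcode sequences occurred in both libraries, and 0 sequences belonged to members of both. Members were deeper than low astrocytes. Their median was 8555 UMIs against 4228.5 in E3 and 7946.5 against 4117 in E4, with a lowest and a highest member of 1812 and 32324 UMIs in E3 and of 2998 and 49742 in E4. Members also had a larger median share of mitochondrial UMIs, at 12.3% against 8.30% in E3 and 11.7% against 8.91% in E4. The part of depth and of mitochondrial share in the levels below was not tested.

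Members made up 4.33% of the gated astrocytes in E3 (119 of 2747, interval 3.60 to 5.16%) and 2.84% in E4 (92 of 3236, interval 2.30 to 3.48%). The limit was a raw count, and the share was larger among deeper barcodes. Among gated barcodes of 1500 to 2999 UMIs, 0.813% were members in E3 and 0.185% in E4. Between 8000 and 11999 UMIs the shares were 25.5% in E3 and 25.2% in E4. At 20000 UMIs or more they were 46.7% of 15 barcodes and 46.2% of 13. Within each depth range the intervals of the libraries overlapped. When every gated barcode was thinned to 1500 UMIs and 2 thinned UMIs of Gfap and Vim were required, 4.51% of E3 and 3.15% of E4 barcodes passed.

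**Figure D1:**
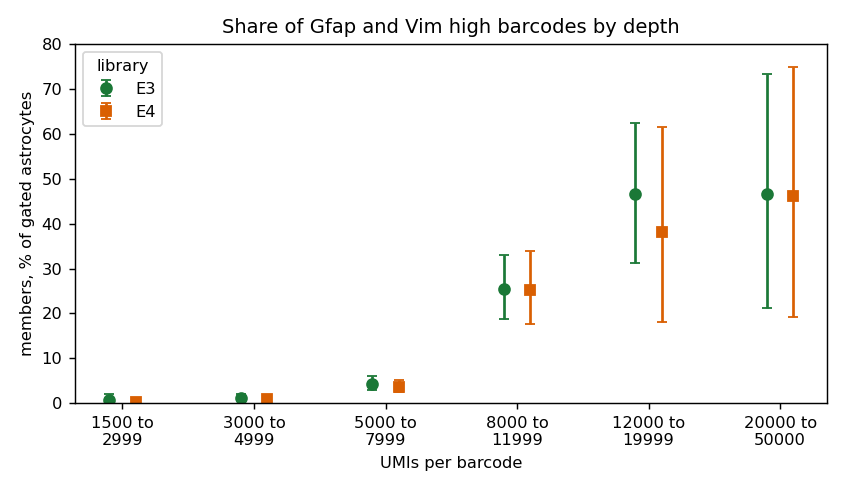
Share of gated astrocytes that were members (y axis, percent) in 6 ranges of UMIs per barcode (x axis) for the E3 and E4 libraries; bars are exact 95% binomial intervals. The shares climbed from 0.813% (E3) and 0.185% (E4) at 1500 to 2999 UMIs to 46.7% (E3) and 46.2% (E4) at 20000 or more, and the libraries overlapped in every range.

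The gate itself took out more Gfap and Vim bearing barcodes than it kept. Of 259 barcodes in E3 with sufficient Aldoc, Aqp4 and Gja1 and with 5 or more UMIs of Gfap and Vim, 93 failed on the ependymal genes, 23 on the fibroblast genes, 18 on Cldn5, 15 on the C1q genes and 5 on Mog and Mag. Of 249 in E4, these numbers were 96, 12, 44, 20 and 1. A barcode could fail on several.

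In single members the filament genes spanned a wide range. The sum of Gfap and Vim was 1.68 UMIs per 10000 UMIs in the lowest E3 member, 18.6 at the median and 130.0 in the highest. In E4 these values were 1.44, 12.7 and 97.6. Gfap and Vim did not come together in all members. In E3, 27 members held 5 or more UMIs of each gene, 64 passed on Gfap with Vim under 5, 13 passed on Vim with Gfap under 5, and 15 had fewer than 5 of each. In E4 the numbers were 17, 33, 32 and 10. Gfap was at 0 in 12 E3 and 25 E4 members, and Vim was at 0 in 25 and 18.

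**Figure D2:**
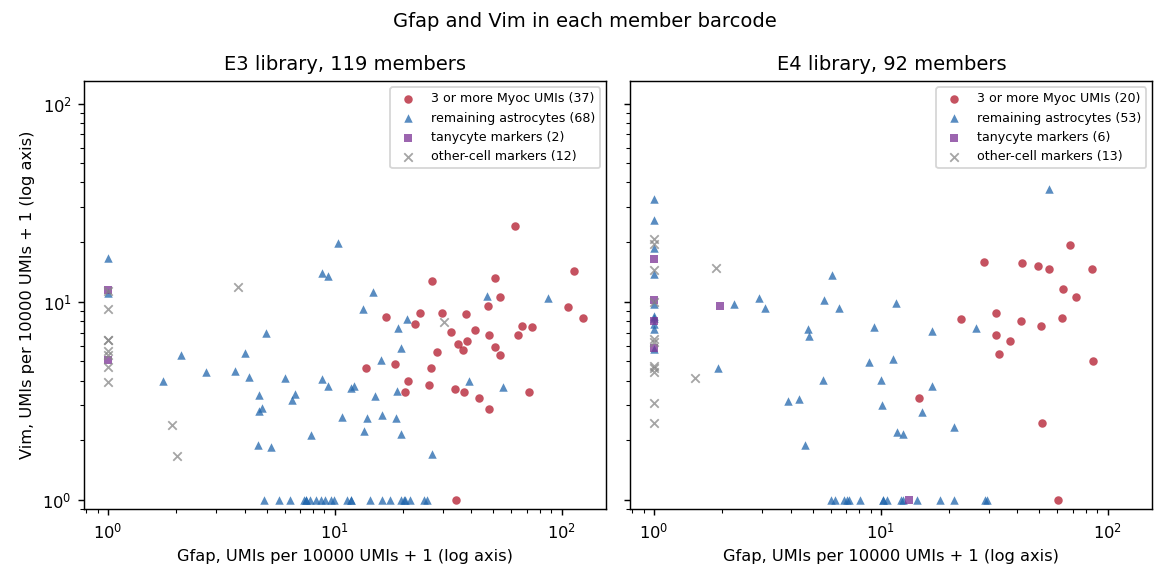
Gfap (x axis) against Vim (y axis), each as UMIs per 10000 UMIs plus 1 on log axes, in the 119 E3 members (left) and the 92 E4 members (right); symbols mark members with 3 or more Myoc UMIs, with tanycyte markers, with markers of other cell types, and the remaining astrocytes. Myoc-bearing members lie at high Gfap, and most barcodes with markers of other cell types lie at a Gfap of 0.

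The limit of 5 UMIs cut through a continuous range. Just inside it, with a sum of 5 or 6, were 27 E3 and 29 E4 members. Just outside, with a sum of 3 or 4, were 82 and 70 barcodes. Summed over these barcodes and scaled to a CPM (the UMIs of a gene per 1000000 UMIs), Gfap was at 390 CPM just inside and 316 just outside in E3, and at 241 and 272 in E4. Members with a sum of 30 or more, 21 in E3 and 14 in E4, stood far from that edge, at 5044 and 4691 CPM of Gfap.

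The marker genes that the rule did not use were higher in members, but only a part of the members held them. Thbs4 was at 100 CPM in members and 6.53 in low astrocytes of E3, and at 83.0 and 4.22 in E4, log2 differences of 3.94 (3.51 to 4.37) and 4.30 (3.78 to 4.82). It had a UMI in 27 of the 119 E3 members and in 19 of the 92 E4 members. C4b was at 262 CPM in members and 28.6 in low astrocytes of E3, and at 241 and 26.0 in E4, log2 differences of 3.20 (2.97 to 3.42) and 3.21 (2.96 to 3.46). It had a UMI in 82 E3 and 53 E4 members. C4b has a near-identical neighbour, C4a, so its counts are uncertain by any reads shared with that copy. All 4 markers occurred together in 16 E3 members (13.4%) and 10 E4 members (10.9%), and neither Thbs4 nor C4b in 29 and 33. Gfap and Vim were high by the rule itself. Thbs4 and C4b were not used by the rule, but they were chosen with earlier results of these data known. They are therefore no independent support for the label.

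Thinned to 1500 UMIs per barcode, C4b was seen in 26.9% of E3 and 29.3% of E4 members, against 3.31% and 3.18% of low astrocytes. The same thinning gave Thbs4 in 5.88% and 10.9% of members against 0.647% and 0.541%. Microglia-like barcodes, which should lack these genes, set the level of free RNA. They numbered 3130 in E3 and 3906 in E4, with medians of 3772 and 4331 UMIs, and showed C4b in 1.41% of thinned E3 barcodes and Thbs4 in 0 of 3130, which allows a share of up to 0.118%. In E4 these values were 1.25% for C4b and 0 of 3906 for Thbs4. The myelin gene Mbp, which neither cell type transcribes in quantity, was seen in 24.4% of thinned E3 members, 23.4% of low astrocytes and 23.7% of microglia-like barcodes, so for Mbp the members did not stand above that level.

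Astrocyte identity was checked with 10 astrocyte genes outside the gate, among them the glutamate transporters Slc1a2 and Slc1a3. All 10 were detected, and their summed level was 20905 CPM in E3 members and 16171 in E4 members, against 21009 and 21418 in low astrocytes and 611 and 603 in microglia-like barcodes. Single genes differed from the sum. Of the 10, 3 were higher and 7 lower in members than in low astrocytes, 3 of them 2-fold lower, with a median log2 difference of -0.55. Without the barcodes that carried markers of tanycytes or of other cell types, described below, the members' sums were 25972 and 23374 CPM. Of the 10 genes, 7 were lower in that setting, 2 of them 2-fold, with a median of -0.18.

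The start regions of the 3 chosen markers found in the promoter table, and of Myoc, which turned out to separate the members, are shown because STAT3, a factor induced in reactive astrocytes, binds the palindrome TTCNNNGAA. Each line gives the RefSeq sequence from 100 bases before the annotated start to 30 after it, 5′ to 3′ on the gene's strand in build GRCm38.p6, with the palindrome in capitals. The regions were chr11:102897171-102897300 (minus strand) for Gfap, chr2:13574211-13574340 (plus) for Vim, chr13:92794789-92794918 (minus) for Thbs4 and chr1:162639050-162639179 (plus) for Myoc. C4b was not matched.
Gfap: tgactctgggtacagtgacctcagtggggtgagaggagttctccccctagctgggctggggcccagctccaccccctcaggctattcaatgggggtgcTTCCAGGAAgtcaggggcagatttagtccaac
Vim: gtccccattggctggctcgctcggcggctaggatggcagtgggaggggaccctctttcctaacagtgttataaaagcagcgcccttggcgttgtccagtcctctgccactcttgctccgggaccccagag
Thbs4: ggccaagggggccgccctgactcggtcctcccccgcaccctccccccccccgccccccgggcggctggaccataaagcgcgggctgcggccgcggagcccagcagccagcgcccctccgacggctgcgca
Myoc: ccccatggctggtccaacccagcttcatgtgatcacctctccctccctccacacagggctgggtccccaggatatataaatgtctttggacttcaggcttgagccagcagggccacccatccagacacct
Within 250 bases before and 50 after the start, Gfap held 1 match, whose first base lay at position -2 from the start, and Vim, Thbs4 and Myoc held 0. Both strands read the same palindrome, and 8.30% of all 32851 promoters of this 300-base length held it. A match is a description of the letters and not evidence of binding. The Gfap gene spans chr11:102887336-102900912 in the GENCODE annotation, so the RefSeq start used here lies inside the annotated gene.

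Members fell into distinct kinds. A split by markers, with limits set after the data were seen, placed 37 E3 and 20 E4 members in a set with 3 or more UMIs of Myoc. Myoc encodes myocilin, a secreted glycoprotein described in astrocytes of the glia limitans, the layer under the pia. These were 31.1% of the E3 members (22.9 to 40.2%) and 21.7% of the E4 members (13.8 to 31.6%). Among low astrocytes 0 of 2628 in E3, which allows a share of up to 0.140%, and 1 of 3144 in E4 reached that limit. Few members lay between: 2 in E3 and 2 in E4 had 1 or 2 Myoc UMIs, while Myoc-bearing members reached 202 UMIs in E3 and 116 in E4. The remaining astrocytes were 68 E3 (57.1%) and 53 E4 (57.6%) members. A set of 2 E3 and 6 E4 members held 10 or more UMIs of the tanycyte markers. A further 12 E3 (10.1%) and 13 E4 (14.1%) held 10 or more of the markers of 1 other cell type. Markers of other cells and of tanycytes took precedence over Myoc. The other-cell set thus included 1 E3 member with 7 Myoc UMIs.

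Filament genes were higher in Myoc-bearing members than in the remaining astrocytes. Gfap was at 4522 CPM in them, 1071 in the remaining astrocytes and 37.9 in low astrocytes of E3, and at 5009, 809 and 35.8 in E4. Per barcode, Gfap ran from 12.8 to 123 UMIs per 10000 in the 37 E3 members of this kind, with a median of 36.7, and from 13.7 to 84.8 in the 20 of E4, with a median of 49.1. Its median in the remaining astrocytes was 9.12 in E3 and 6.08 in E4, and the ranges overlapped. Vim was at 651, 281 and 41.1 CPM in the same order in E3, and at 804, 478 and 35.9 in E4. C4b was at 505, 231 and 28.6 CPM in E3 and at 746, 186 and 26.0 in E4. Serpina3n, a secreted protease inhibitor of reactive astrocytes, was at 77.9, 28.5 and 6.20 CPM in E3 and 115, 14.7 and 6.66 in E4. Thbs4 went the other way, at 71.7 CPM in Myoc-bearing members and 160 in the remaining astrocytes of E3, and at 43.1 and 164 in E4.

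Other genes set the Myoc-bearing members apart from the remaining astrocytes in both libraries. Aqp4, the water channel of astrocyte endfeet and one of the gate genes, was at 4279 against 1680 CPM in E3 and 4098 against 1449 in E4. Id3, a transcriptional target of bone morphogenetic proteins, was at 2035 against 837 and at 1966 against 782 CPM. Il6st, the shared receptor subunit of the interleukin 6 family, was at 452 against 160 and at 567 against 123 CPM. Cd44, a hyaluronan receptor, was at 90.4 against 16.0 and at 108 against 19.6 CPM. The taurine transporter Slc6a6 was at 436 against 55.2 and 639 against 53.9 CPM, and the glutamine transporter Slc38a1 at 882 against 251 and 1428 against 338. Plec, which links intermediate filaments to junctions, was at 324 against 71.2 and 445 against 49.0 CPM. These 7 genes were higher beside Myoc in each library.

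Other genes were lower in Myoc-bearing members. Slc7a10, which exchanges small neutral amino acids such as D-serine, was at 12.5 CPM in them, 205 in the remaining astrocytes and 465 in low astrocytes of E3, and at 7.18, 272 and 544 in E4. Gria2, an AMPA receptor subunit, was at 34.3, 174 and 897 CPM in E3 and at 7.18, 275 and 1108 in E4. Mfge8, a secreted protein that binds phosphatidylserine, was at 196, 740 and 1311 CPM in E3 and 100, 713 and 1279 in E4. These 3 genes held the same order in both libraries. Slc1a2, the main astrocytic glutamate transporter, was not lower across the members: it was at 7972, 13372 and 6335 CPM in E3 and at 4493, 10298 and 6514 in E4, highest in the remaining astrocytes. Cst3, the protease inhibitor cystatin C, was at 6885, 20169 and 17138 CPM in E3 and at 4406, 21132 and 18380 in E4.

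**Figure D3:**
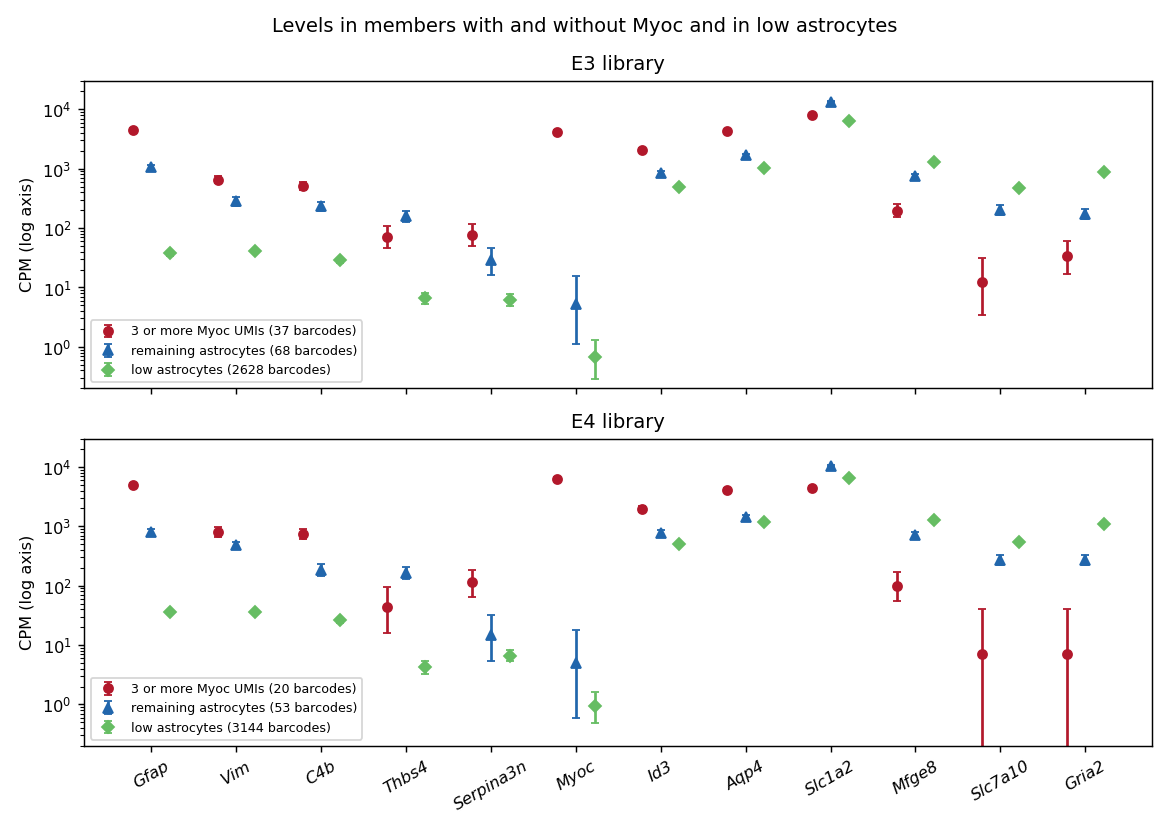
CPM on a log axis of 12 genes in members with 3 or more Myoc UMIs, in the remaining astrocytes among members and in low astrocytes, for E3 (top) and E4 (bottom); bars are exact 95% Poisson intervals, some cut by the axis. Gfap, Vim, C4b, Serpina3n, Id3 and Aqp4 were highest and Mfge8, Slc7a10 and Gria2 lowest in the Myoc-bearing members, while Slc1a2 and Thbs4 were highest in the remaining astrocytes.

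The remaining astrocytes were themselves mixed. Thbs4 was detected in 19 of the 68 in E3 and in 16 of the 53 in E4. Those with Thbs4 had less Agt, the angiotensinogen gene of diencephalic and hindbrain astrocytes, at 215 against 1090 CPM in E3 and 93.7 against 1022 in E4. They also had less Aqp4, at 752 against 2015 and 750 against 1731 CPM, and less Nnat, which encodes the membrane proteolipid neuronatin, at 389 against 1584 and 545 against 1549. Igfbp5, a secreted binding protein of insulin-like growth factors, was higher with Thbs4, at 1322 against 530 CPM in E3 and 1074 against 437 in E4. The calcium-binding S100a6 was also higher, at 671 against 276 and 1253 against 358 CPM. Gfap differed less, at 1107 with Thbs4 and 1059 without in E3 and at 673 and 864 in E4. This split was made after the data were seen, and a barcode with few UMIs can lack Thbs4 by sampling.

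Some members did not look like astrocytes by the markers fixed for other cells. The 2 E3 and 6 E4 members with tanycyte markers had Rax, a transcription factor of hypothalamic tanycytes, at 818 and 629 CPM, and Nnat at 15227 and 12860 CPM. Their Gfap was at 0 in E3 and 177 CPM in E4, and their Aqp4 at 25.5 and 275. Both E3 and 5 of the 6 E4 barcodes passed on Vim with Gfap under 5. The 12 E3 and 13 E4 members with markers of other cells held 19.0% and 32.0% of all members' UMIs, with medians of 19200 and 19662 UMIs per barcode. Fibroblast markers led in 4 E3 and 6 E4 of them and choroid plexus markers in 2 and 2. Neuroblast markers led in 2 and 2, neuronal in 2 and 0, mural in 0 and 2, endothelial in 1 and 0, macrophage in 1 and 0, and microglial in 0 and 1. In these barcodes Ttr, the transthyretin gene of the choroid plexus, was at 57814 CPM in E3 and 77901 in E4, against 271 and 373 in the remaining astrocytes. A single barcode held 58.3% of all members' Ttr UMIs in E3 and 51.9% in E4. Gfap was at 106 and 7.12 CPM in the barcodes with other-cell markers. They are given as part of the rule's members and are left out where stated.

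Within the 105 E3 and 73 E4 members without those markers, some genes followed the filament level and others did not. In E3, C4b was at 105 CPM in the 28 barcodes with under 10 UMIs of Gfap and Vim per 10000, at 223 between 10 and 20, at 358 between 20 and 40 and at 700 in the 24 barcodes of 40 or more. In E4 the same ranges gave 94.0, 311, 357 and 754 CPM. Slc1a2 ran the opposite way, from 16043 through 10811 and 9090 to 7995 CPM in E3 and from 11866 through 9532 and 7971 to 2930 in E4. Slc7a10 went from 263 to 14.5 CPM in E3 and from 308 to 9.30 in E4 between the lowest and the highest range. Thbs4 had no steady order, at 144, 123, 213 and 19.3 CPM in E3 and 141, 114, 308 and 18.6 in E4, and Agt ran through 741, 1168, 531 and 1338 CPM in E3. Myoc-bearing barcodes numbered 0, 1, 16 and 20 along these ranges in E3 and 0, 1, 4 and 15 in E4. The share with Myoc was thus larger where C4b was higher.

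Astrocytes of the telencephalon and of regions behind it transcribe different position genes, and 12 telencephalic and 15 non-telencephalic genes were summed per barcode. The non-telencephalic sum exceeded the telencephalic sum in 64.9% of Myoc-bearing, 61.8% of remaining and 44.9% of low astrocytes in E3, and in 85.0%, 69.8% and 47.2% in E4. Between 2 and 13 barcodes of each member kind lay within 2 UMIs of a tie. The telencephalic sum was 714 CPM in Myoc-bearing members, 1792 in the remaining astrocytes and 2514 in low astrocytes of E3, and 588, 1706 and 2551 in E4. The non-telencephalic sum was 2322, 4549 and 3148 CPM in the same order in E3 and 2476, 5073 and 3350 in E4, so in Myoc-bearing members both sums lay below those of low astrocytes. Mfge8 and Slc7a10, named above, are among these position genes.

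Across the genome, 11294 genes had 100 or more UMIs over members and low astrocytes. Since the same counts chose the members, this contrast is a description. At least 2-fold higher in members of both libraries were 652 genes (5.77%), of which 620 had both intervals above 0, and at least 2-fold lower were 485 (4.29%), of which 350 had both below 0. The median gene differed by -0.05 on the log2 scale in E3 and 0.00 in E4. Without the tanycyte-marker and other-cell barcodes on both sides, 363 genes were higher and 441 lower of 10993. Of the 652 higher genes, 274 were among those 363, a share of 42.0% of the first set and 75.5% of the second.

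Myoc headed the genes by size, at 1196 CPM in members and 0.661 in low astrocytes of E3 and at 1002 and 0.930 in E4, log2 differences of 10.82 (9.84 to 12.04) and 10.07 (9.29 to 10.99). Myoc-bearing members held 99.3% and 99.8% of its members' UMIs. Next by size were Fxyd6, a regulator of the sodium pump, at 302 against 3.30 CPM in E3 and 183 against 3.36 in E4, and Cidea, a lipid droplet protein, at 67.7 against 1.32 and 63.7 against 1.22. Sulf2, which trims sulfate from heparan sulfate, was at 78.2 against 1.24 and 94.4 against 2.50 CPM. Sema3b, a secreted semaphorin, was at 39.5 against 1.16 and 47.8 against 1.22, and Nrp2, a semaphorin receptor, at 88.8 against 3.47 and 62.6 against 2.58. Serpinf1, a secreted serpin, was at 56.2 against 1.73 and 38.7 against 2.65 CPM. Between 52.7% and 88.3% of the members' UMIs of these 6 genes came from Myoc-bearing barcodes in either library.

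Other genes among the 15 with the highest log2 differences came from the barcodes with markers of other cells. The class II antigen presentation genes H2-Aa, H2-Ab1, H2-Eb1 and Cd74 took 97.5 to 100% of their members' UMIs from them. The mitotic gene Cenpf took 94.7% in E3 and 98.4% in E4. Prg4, Spp1 and Col25a1 took 71.3 to 85.3% in E3 and 83.3 to 100% in E4. In the remaining astrocytes of E3, 1 barcode held all 48 UMIs of Prg4, all 13 of Spp1 and 208 of 214 of Mgp, and had 8 UMIs of its leading list of other-cell markers, just under the limit. Between 3 and 8 members of a library held any UMI of each of the 8 genes other than Mgp.

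With those barcodes left out, the leading genes by size were Myoc, Fxyd6, Sulf2, Cidea and Aebp1, a secreted matrix protein at 60.0 against 0.696 CPM in E3 and 64.0 against 2.02 in E4. Emb, a cell adhesion glycoprotein, followed at 112 against 1.91 and 110 against 3.44 CPM. Ahnak, a large scaffold protein, was at 126 against 10.8 and 93.2 against 8.68. Ifitm3, an interferon-induced membrane protein, was at 161 against 17.3 and 113 against 11.7 CPM. Tnc, the matrix glycoprotein tenascin C, was at 45.3 against 6.96 and 51.2 against 3.96. Thbs4, at 128 against 6.26 CPM in E3 and 133 against 4.26 in E4, stood beside them.

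Among the lowest genes of the full comparison, Hba-a1, Hba-a2, Hbb-bs and Hbb-bt encode haemoglobin chains. Hbb-bs was at 39.5 CPM in members and 1259 in low astrocytes of E3, and at 11.4 and 903 in E4. Low astrocytes included 8 E3 and 6 E4 barcodes led by erythroid markers, and without other-cell and tanycyte barcodes the summed erythroid markers were at 90.6 in members against 153 CPM in E3 and 21.9 against 33.1 in E4. Of the other low genes, Olig2, a transcription factor of the oligodendrocyte lineage and of some astrocytes, was at 7.03 against 47.2 CPM in E3 and 2.28 against 48.1 in E4. Gria2 was at 108 against 897 and 213 against 1108 CPM. The glycerol channel gene Aqp9 was at 7.91 against 20.2 and 1.14 against 21.5. Rpe65, a retinoid isomerase, was at 0 in E3 members against 30.8 CPM in low astrocytes. With that 0 set to a floor of 3 UMIs the log2 difference was -3.55, and the exact interval reached up to -3.24. In E4 Rpe65 was at 3.41 against 40.1 CPM. Kbtbd8 rested on 1 UMI in the members of each library.

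Without the marked barcodes, several astrocyte genes stood among the lowest. Malat1, a nuclear noncoding RNA, was at 34887 CPM in members and 125564 in low astrocytes of E3, and at 46863 and 141817 in E4, log2 differences of -1.85 and -1.60. Igfbp2 was at 15.9 against 283 and 25.6 against 277 CPM. Mfsd2a, a lysophosphatidylcholine transporter, was at 24.9 against 149 and 42.0 against 171. Fzd2, a Wnt receptor, was at 62.3 against 221 and 60.3 against 264 CPM, and F3, tissue factor, at 257 against 851 and 283 against 1022. Slco1c1, which carries thyroxine, was at 160 against 447 and 117 against 410. Hes5, a Notch target, was at 213 against 691 and 254 against 665 CPM. Each of these was lower in members of both libraries with its interval below 0.

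Groups of genes differed in the same manner. Lists are given by how many of their measured genes were 2-fold higher or lower in both libraries, beside 5.77% and 4.29% of all genes, and by the median of the log2 differences averaged over the libraries, beside -0.03 for all genes. The list medians without the marked barcodes follow in each case. Of 22 cytoskeletal and filament genes, 18 were 2-fold higher and 0 lower, with a median of 2.30 (1.58 without, with 13 of 19 2-fold higher). Gfap and Vim, which chose the members, are among these 18 and among the disease-associated genes below. The others included S100a10, at 272 against 60.1 CPM in E3 and 295 against 62.5 in E4. In barcodes with other-cell markers S100a10 was at 574 CPM in E3 and 427 in E4. It was at 187 and 122 in Myoc-bearing members and at 198 and 267 in the remaining astrocytes. Tmsb4x, which binds actin monomers, was at 1439 against 510 and 2220 against 532 over all members. Anxa2, which links actin to membranes, was at 119 against 7.93 and 149 against 12.5. Of 20 genes listed for disease-associated astrocytes, 10 were 2-fold higher and 0 lower, with a median of 1.03 (1.28). Beside Gfap, Vim, C4b and Serpina3n the 10 included Igfbp5, at 1027 against 128 CPM in E3 and 744 against 126 in E4, and Cd9, a tetraspanin, at 425 against 157 and 481 against 166. The protease inhibitor Cst3 differed by -0.31 and -0.38 on the log2 scale and the metallothionein Mt1 by 0.00 and -0.11. All 5 measured pan-reactive genes were 2-fold higher, with a median of 3.23 (3.47), but Gfap and Vim, which chose the members, are among the 5. Without the marked barcodes 4 were 2-fold higher, and the heat shock gene Hspb1 was at 12.5 against 6.44 CPM in E3 and 3.65 against 7.85 in E4. Of 18 subventricular and stem cell genes 5 were 2-fold higher and 1 lower, with a median of 0.20 (0.36), and of 11 glia limitans genes 4 were higher and 0 lower, with a median of 0.59 (0.92, with 3 higher and 3 lower).

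Of 28 homeostatic astrocyte genes, 13 were 2-fold lower and 0 higher, with a median of -0.89 (-0.67, with 6 of 28 lower 2-fold). Examples were the sphingosine receptor S1pr1, at 652 against 1644 CPM in E3 and 549 against 1539 in E4, the tight junction gene Cldn10, at 497 against 1207 and 512 against 1304, and the serine protease Htra1, at 477 against 1333 and 455 against 1408. The glutamate and GABA transporters and enzymes counted 3 of 17 lower and 0 higher, with a median of -0.57 (-0.43). Sterol synthesis genes counted 3 of 17 lower and 0 higher, with a median of -0.78 (-0.55). Within that list Hmgcs1, which makes HMG-CoA, was higher, at 420 against 237 CPM in E3 and 239 against 216 in E4, while Msmo1, a sterol demethylase, was at 248 against 675 and 204 against 674. Notch pathway genes counted 2 of 11 lower, with a median of -0.58 (-0.24), and those were Hes5 and Lfng, at 37.8 against 122 and 48.9 against 149 CPM.

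BMP and Id genes counted 12 of 13 higher and 3 of 13 2-fold higher, with a median of 0.74 (0.74). The gene Id1 was at 314 against 104 CPM in E3 and 293 against 100 in E4, and Id2 was the member of the list that was lower. All 44 cytosolic ribosomal protein genes were higher and 35 were 2-fold higher, with a median of 1.20 (1.005, with 19 of 44 2-fold higher), and 0.58 when low astrocytes were weighted to the depth of the members. All 13 mitochondrially encoded genes were higher, with 0 past 2-fold and a median of 0.36 (0.44). Class I antigen presentation genes counted 3 of 8 2-fold higher, with a median of 1.12, and 0 of 7 without the marked barcodes, with a median of 0.83. The neuroinflammatory reactive list lost more, from 7 of 9 genes 2-fold higher and a median of 2.39 to 1 of 6 and 0.54. The list of immediate-early and dissociation stress genes turned from a median of 0.87 to -0.25. Nuclear oxidative phosphorylation genes, with 0 of 77 past 2-fold and a median of 0.14 (0.15), and glycolysis genes, with 1 of 26 and a median of -0.07 (0.10), stood near the median of all genes.

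**Figure D4:**
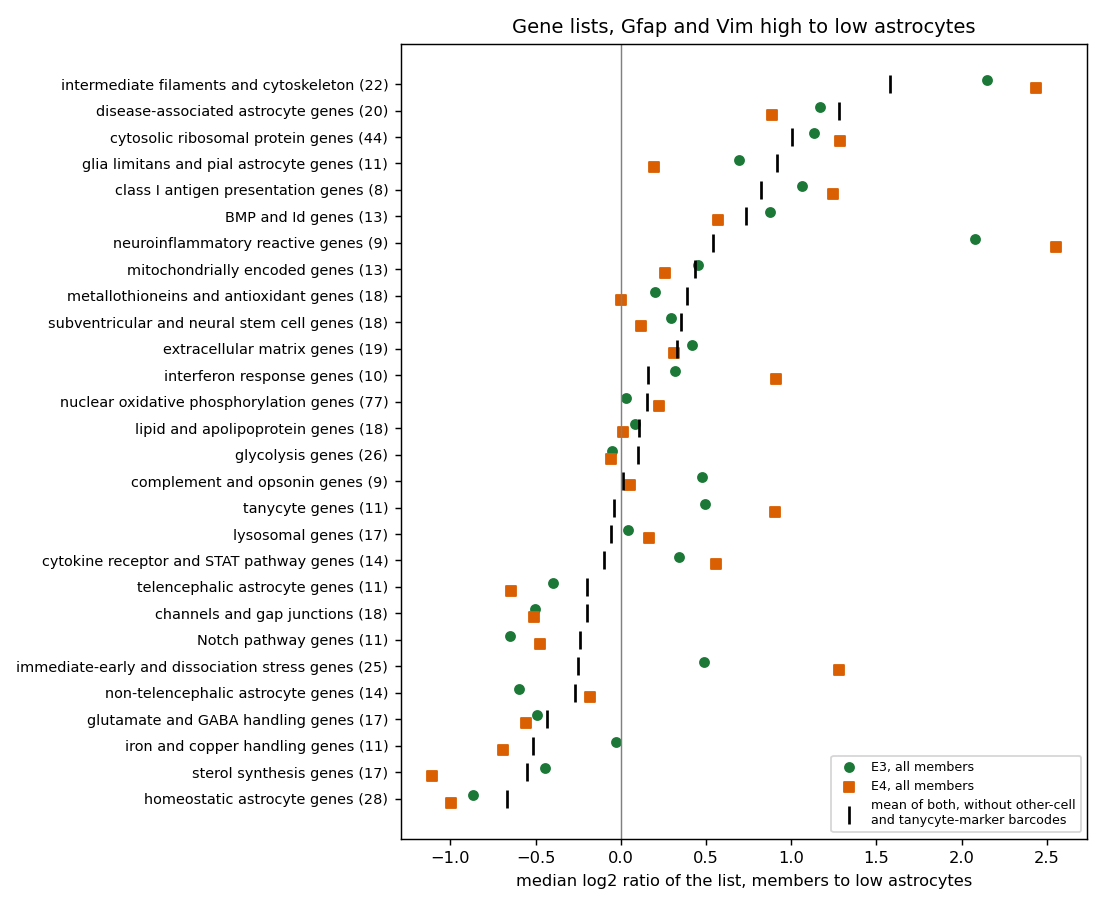
Median log2 ratio of members to low astrocytes (x axis) for each gene list (y axis, number of measured genes in brackets) in E3 and in E4, with black ticks for the mean of both without barcodes that carried other-cell or tanycyte markers. Filament and neuroinflammatory genes (medians 2.30 and 2.39) lie to the right and homeostatic genes (-0.89) to the left, and the stress and neuroinflammatory lists shift left when those barcodes are left out.

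E4 members stood beside E3 members with a smaller share, given above, and another mix of kinds. Myoc-bearing members were 31.1% in E3 and 21.7% in E4, and the intervals of these shares overlapped. For Gfap, members were at 1824 CPM in E3 and 1182 in E4, a log2 difference of -0.63 (-0.74 to -0.52), while low astrocytes differed by -0.08 (-0.27 to 0.10). Within the Myoc-bearing members the difference was 0.15 (0.02 to 0.28), and within the remaining astrocytes it was -0.41 (-0.60 to -0.21). With the kinds weighted as in E3, a setting added after the data were seen, it was 0.0063, and with mitochondrial genes limited to 10% it was -1.77. Myoc-bearing members held 28.2% of the members' UMIs in E3 and 15.9% in E4.

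Vim went the other way, at 424 CPM in E3 and 570 in E4 members, a log2 difference of 0.43 (0.24 to 0.61), against -0.19 (-0.37 to -0.01) in low astrocytes. It was 0.30 (-0.04 to 0.64) in Myoc-bearing members and 0.77 (0.46 to 1.08) in the remaining astrocytes. Gfap was at 0 in 2 of the 68 remaining astrocytes of E3 and in 10 of the 53 of E4. Gfap and Vim chose the members, so their differences only describe the chosen barcodes. Members with 5 or more Vim UMIs and Gfap under 5 numbered 13 in E3 and 32 in E4. Thbs4 differed by -0.27 (-0.71 to 0.17) and C4b by -0.12 (-0.38 to 0.14), so both intervals held 0. Within the Myoc-bearing members C4b was higher in E4, at 746 against 505 CPM, a log2 difference of 0.56 (0.19 to 0.93), and in the remaining astrocytes it was at 186 against 231, a difference of -0.31 (-0.74 to 0.11). Myoc, which chose that kind, was at 1196 CPM in all E3 and 1002 in all E4 members, and differed by 0.07 (-0.05 to 0.19) without the marked barcodes. Counts on the mouse Apoe gene were at 146 CPM in E3 and 137 in E4 members, below the 245 and 301 of low astrocytes. Since the mice carry human APOE, these counts are reads that aligned to the mouse reference and do not measure the human transcript.

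**Figure D5:**
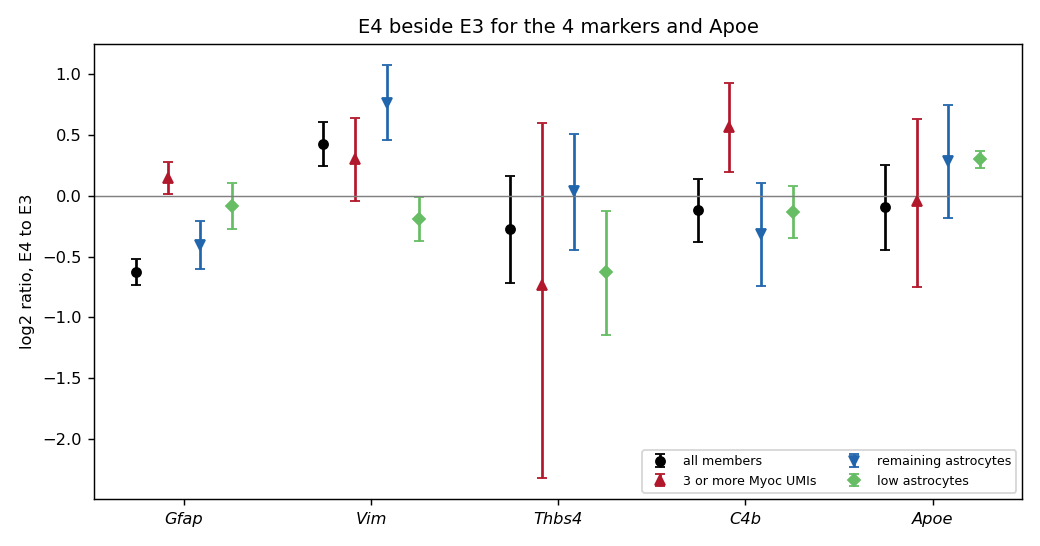
Log2 ratio of E4 to E3 CPM (y axis) for Gfap, Vim, Thbs4, C4b and Apoe (x axis) in all members, in members with 3 or more Myoc UMIs, in the remaining astrocytes and in low astrocytes; bars are exact 95% intervals for counting error. Gfap was lower in E4 over all members and slightly higher within the Myoc-bearing members, while Vim was higher in E4 members and lower in low astrocytes.

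Of 3255 genes with 100 or more UMIs in the members, 136 (4.18%) were at least 1.5-fold higher in E4 and 92 (2.83%) at least 1.5-fold lower. Scaled to totals without mitochondrial, haemoglobin and rRNA-overlapping genes, the split was 104 higher and 117 lower. Without the tanycyte-marker and other-cell barcodes, 85 were higher and 38 lower of 2274. The highest ratios belonged to the smooth muscle genes Tagln, with 1 UMI in E3 and 211 in E4, and Acta2, with 0 and 307, of which 1 E4 barcode held 85.3% and 82.1%. Fos, an immediate-early gene, was at 35.2 and 220 CPM, with 42.5% of the E4 UMIs in 1 barcode, and at 21.5 and 14.6 without the marked barcodes. Crip1 was at 57.1 and 217 CPM and at 64.6 and 47.5 without them. Gria2 was higher in E4 on either set, at 108 and 213 CPM over all members, a log2 difference of 0.98 (0.64 to 1.32). Without the marked barcodes it was at 123 and 207 CPM, and the difference in low astrocytes was 0.30 (0.27 to 0.34). Within the Myoc-bearing members Gria2 was lower in E4, at 34.3 CPM (11 UMIs) in E3 and 7.18 (1 UMI) in E4. Within the remaining astrocytes it was at 174 and 275 CPM. With the kinds weighted as in E3, the difference over members was 0.52. Igfbp2 was at 89.6 and 223 CPM, and without the marked barcodes 14 UMIs remained in each library, a log2 difference of 0.69 (-0.49 to 1.87).

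Among the genes lowest in E4 members, some were lower in E4 low astrocytes as well. Lars2, at 1828 CPM in E3 and 599 in E4, differed by -1.61 in members and -1.36 in low astrocytes, and Gm42418, at 31816 and 12122, by -1.39 and -1.17. Both genes collect reads of ribosomal RNA. Bc1, a small cytoplasmic RNA, differed by -1.42 and -1.38, and mt-Atp8, a subunit of ATP synthase, by -0.97 and -0.65. Dio2, the deiodinase that activates thyroid hormone, was at 149 and 77.4 CPM in members, a log2 difference of -0.95 (-1.38 to -0.54), against -0.01 (-0.10 to 0.07) in low astrocytes. It was lower in E4 both in Myoc-bearing members, at 153 and 35.9 CPM, and in the remaining astrocytes, at 208 and 123. Ctnnbip1, an inhibitor of beta-catenin, was at 127 and 63.7 CPM, with -0.22 (-0.37 to -0.07) in low astrocytes. It was at 243 and 93.3 CPM in Myoc-bearing members, where E4 held 13 UMIs. In the remaining astrocytes Ctnnbip1 was at 92.6 and 85.8 CPM, a log2 difference of -0.11 (-0.77 to 0.54).

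Sterol synthesis genes were lower in E4 members as a group, with 12 of 12 measured genes on that side and 6 past 1.5-fold, at a median of -0.52 beside 0.04 for all 3255 genes. In low astrocytes 7 of the same 12 were lower, at a median of -0.00093. Without the marked barcodes 10 of 11 were lower and 2 past 1.5-fold, at a median of -0.27. Hmgcs1 was at 420 CPM in E3 and 239 in E4 members, a log2 difference of -0.81 (-1.06 to -0.58), and was lower within the Myoc-bearing members, at 760 and 474 CPM, and within the remaining astrocytes, at 354 and 253. Some other sterol genes lay nearer 0 within the remaining astrocytes, where Idi1 differed by -0.13 (-0.57 to 0.30), Msmo1 by -0.03 (-0.43 to 0.36) and Fdft1 by 0.14 (-0.44 to 0.71). Idi1, which isomerises isopentenyl diphosphate, was at 212 and 134 CPM, and Cyp51, a sterol demethylase, at 150 and 86.5. The glutamate and GABA list had 11 of 15 genes lower in E4 and 4 past 1.5-fold, at a median of -0.22, and 8 of 14 lower with 0 past 1.5-fold without the marked barcodes. Slc1a2 was at 9028 and 5980 CPM, and at 11409 and 8819 without them, differences of -0.59 and -0.37 on the log2 scale, against 0.04 in low astrocytes. Glycolysis genes had 7 of 20 higher in E4 and 0 past 1.5-fold, at a median of -0.05. In low astrocytes 10 of the same 20 were higher, at a median of -0.00032. Nuclear oxidative phosphorylation genes had 45 of 77 higher in E4 and 1 past 1.5-fold, at a median of 0.02. Without the marked barcodes 23 of 76 were higher and 53 lower, at a median of -0.12. In low astrocytes 10 of the same 77 were higher and 67 lower, at a median of -0.13. The differences in members rest on 1 library per genotype and on 119 and 92 barcodes.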

How the data were processed

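Single-cell 3′ libraries of 2 groups, E3 and E4, were analysed, 1 library of 3 pooled mice each. The deposited values were raw UMI counts per gene and barcode, which the authors made with Cell Ranger (6.1.2 for E3 and 6.1.1 for E4, per the submitters' processing notes) on mm10. All 32285 genes were read, and 32235 of their identifiers were found in GENCODE vM21. Counts were summed over barcodes and scaled to CPM. Ratios carry exact binomial intervals, shares Clopper-Pearson intervals and levels Poisson intervals (95%). Genes needed 100 UMIs over the compared barcodes. No doublet caller was run. Barcodes with 10 or more UMIs of 1 list of other-cell or tanycyte markers were counted and left out as an alternative, with limits chosen after seeing the data, as was the Myoc limit of 3. The members and lists were chosen with earlier results of these data known. Named were the markers and Apoe, the 15 highest and 15 lowest genes between members and low astrocytes, the 8 highest and 8 lowest between genotypes (200 UMIs or more), and of each list the 4 most abundant members and those past the fold. Genes named otherwise (among them those that separate the kinds of members, those of the comparison without marked barcodes, and Slc1a2 between genotypes) were chosen after their values were seen. The scripts were tested on simulated data. Python 3.11.15, numpy 2.4.6, pandas 2.3.3, scipy 1.17.1 and matplotlib 3.10.9 were used.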

Additional observations from a re-analysis of the deposited data

Results flagged for a closer look

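For 4 of the named genes the difference between E4 and E3 members had the opposite sign to that in low astrocytes and both intervals left out 0, with 1 library per genotype, and the difference between these differences was not tested. Vim was higher in E4 members by 0.43 on the log2 scale, against -0.19 in low astrocytes, and was 0.43 without barcodes carrying other-cell or tanycyte markers. Vim was part of the rule that split members from low astrocytes, so its opposite signs are not independent of that choice. Cd74, the invariant chain of class II antigen presentation, was higher by 2.88 against -0.56, and barcodes with other-cell markers held 100% of its members' UMIs in E3 and 99.7% in E4. Ttr was higher by 1.17 against -0.28, and by 0.25 (-0.02 to 0.53) without the marked barcodes. Ptgds, a prostaglandin D synthase of the meninges, differed by -1.001 against 0.22, and by -0.06 (-0.71 to 0.56) without them.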

How the results depend on the processing

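No paired analysis was possible because each genotype had 1 library, and no library could be left out. The cause of each difference below was not tested. The share of members in E3 and E4 was 7.32% and 5.01% at a minimum of 3 UMIs of Gfap and Vim, 2.44% and 1.39% at 10, 6.48% and 4.85% from 4000 UMIs per barcode, and 1.97% and 1.59% with mitochondrial genes up to 10%. Genes 2-fold higher in members numbered 286 after thinning, 266 with low astrocytes reweighted by depth, 1501 at a minimum of 20 UMIs, and, in settings added after seeing the data, 363 without marked barcodes and 154 at 1000 UMIs. Those 2-fold lower numbered 279 at a minimum of 3 filament UMIs, 270 after thinning, 178 reweighted and 210 at 1000 UMIs. Between genotypes, 82 genes were higher at 10 filament UMIs, 81 with mitochondrial genes up to 10%, 1136 at 20 UMIs and 85 without marked barcodes, and 47 were lower after thinning, 645 at 20 UMIs and 38 without marked barcodes.

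Between members and low astrocytes the sign turned, among others, for Spp1 (-0.45, thinned), for Gm50232 and Gm31614 (0.16 each, mitochondrial genes up to 10%), for nuclear oxidative phosphorylation (-0.19, reweighted) and, without marked barcodes, for the stress list (-0.25), H2-Ab1 (-0.51), Cd74 (-0.79), and the glycolysis (0.10), cytokine receptor and STAT (-0.10), tanycyte (-0.04) and lysosomal (-0.06) lists. Between genotypes it turned, among others, for Ttr (-3.70, thinned), the cytoskeleton list (-0.20 with mitochondrial genes up to 10% and -0.13 under stricter gates), Ptgds (0.95 under stricter gates and 1.47 up to 20000 UMIs), and, without marked barcodes, the BMP and Id (0.0014), interferon (-0.21), homeostatic (0.12), nuclear oxidative phosphorylation (-0.12), subventricular (0.09) and channel (0.07) lists, Fos (-0.56) and Crip1 (-0.44). With the kinds weighted as in E3 it turned for Fos (-0.56), Crip1 (-0.28) and Gfap (0.0063). Counted over lists and settings, 341 list medians between members and low astrocytes stayed within the order-statistic interval of the main median. A further 20 were classed as moved and 2 as reversed. Between genotypes these numbers were 225, 36 and 3. In both comparisons more list medians turned sign, as named above, than were classed as reversed. For lists the reversed class is therefore no count of sign changes. For named genes, 248 values between members and low astrocytes were classed as unchanged, 132 as moved and 5 as reversed. The numbers for named genes between genotypes were 161, 83 and 8.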
